A study of Mus musculus with 6 samples.

Results

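The genes described here encode the potassium channels that lie outside the inward rectifier (Kir) family, with the subunits that accompany them. They were chosen by symbol, as every protein-coding gene whose name starts with Kcn but not with Kcnj. There were 79 of them among 43346 genes in the table. RNA was sequenced from epiphyseal chondrocytes, the cells of the cartilaginous ends of growing bones, released by collagenase from mice of strain C57BL/6 aged 5 days. There were 3 libraries from wild type (WT) mice and 3 from mice null for Girk3, all male by their labels, and no treatment is given for either group. Kcnj9 encodes Girk3, one of the inward rectifiers that G proteins open, and the comparison asked which transcripts differ when it is absent. Whether animals were pooled in a library, and how the null allele was made, is not given in the sources used here.

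A potassium channel lets potassium ions leave the cell along their gradient and so holds the membrane potential negative. Voltage-gated channels (Kv) open when the membrane depolarises, calcium-activated channels open when cytosolic calcium rises, and two-pore domain channels carry a leak that is open at rest. Auxiliary subunits form no pore but change where, when and how strongly a pore-forming partner opens. In chondrocytes, which live in a matrix rich in fixed negative charge, such channels are known for setting the membrane potential and for regulating cell volume.

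The libraries held 34279516 to 60392837 counts. Kcnj9 had 0 counts in all 6 libraries, wild type included, so it gave no check of the genotype labels. Chondrocyte markers were abundant: Col2a1, the main cartilage collagen, measured 28877 to 54966 CPM in wild type and 51297 to 88071 CPM in Girk3-null libraries (CPM, counts scaled to a library size corrected by TMM factors). The summed level of 10 chondrocyte markers was 44474 to 77465 CPM in wild type and 69096 to 115110 CPM in Girk3-null libraries. Without Col2a1 the 9 others summed to 15596 to 22499 and 17800 to 27036 CPM, which overlap. Markers of other cells were also counted, with 10 endothelial markers summing to 145 to 239 CPM in wild type and 32.3 to 118 CPM in Girk3-null libraries. Against the labels, transcripts of 4 Y-linked genes were counted at 2068 to 8597 each in Girk3-null replicate 1 and at 0 to 3 elsewhere. Xist had 19 counts in that library and 67346 to 144825 in the other 5, so values without Girk3-null replicate 1 are given below where they matter. In bulk RNA, fewer cells of a type and less RNA per cell cannot be told apart.

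The upstream sequences of 3 members are shown for genes at contrasting levels, and no relation of sequence to level was tested. Kcna6 was the most abundant member, Kcna5 lies in the same cluster of Kv1 genes on chromosome 6 at a far lower level, and Kcnk5 was the most abundant leak channel. Each run is the 250 bases before the RefSeq start (build GRCm38.p6, minus strand, 5′ to 3′), with CpG dinucleotides in capitals. The Kcna6 window is chr6:126740675-126740924, that of Kcna5 is chr6:126535556-126535805 and that of Kcnk5 is chr14:20181783-20182032.
Kcna6: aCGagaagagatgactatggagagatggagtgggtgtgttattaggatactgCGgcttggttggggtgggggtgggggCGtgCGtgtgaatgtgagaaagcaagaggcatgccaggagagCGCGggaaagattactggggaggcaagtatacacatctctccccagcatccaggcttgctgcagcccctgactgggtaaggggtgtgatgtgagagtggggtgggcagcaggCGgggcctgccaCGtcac
Kcna5: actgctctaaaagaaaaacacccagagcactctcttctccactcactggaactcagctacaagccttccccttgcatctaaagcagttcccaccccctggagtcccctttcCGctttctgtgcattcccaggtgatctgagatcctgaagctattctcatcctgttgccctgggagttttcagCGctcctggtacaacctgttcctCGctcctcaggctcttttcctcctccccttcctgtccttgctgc
Kcnk5: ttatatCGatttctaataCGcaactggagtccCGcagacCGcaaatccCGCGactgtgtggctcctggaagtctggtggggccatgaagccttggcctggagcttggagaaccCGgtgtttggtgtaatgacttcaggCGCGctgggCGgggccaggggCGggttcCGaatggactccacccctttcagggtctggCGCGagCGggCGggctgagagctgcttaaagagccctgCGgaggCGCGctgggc
The Kcna6 window held 8 CpG at 58.8% GC, the Kcna5 window 3 at 53.2% and the Kcnk5 window 19 at 62.8%. A window was found for 56 of the 79 members, and their median was 12 CpG (range 0 to 43), against 11 over 15855 protein-coding genes, taking the start with the most CpG where several are listed. The median was 15.5 CpG over 10 members at 1 RPKM or more in wild type libraries, 14.5 over 20 members between 0.1 and 1, and 9.5 over 26 members below 0.1 (RPKM, reads scaled to gene length and library total). CpG number did not order the most abundant genes, since Kcne4 had 7, Kcnn4 had 6 and Kcnk1 had 0. The letters TATAAA, searched on both strands, were in 0 of 77 member windows and in 11.2% of 19374 protein-coding windows over all listed starts. The letters ACAAT, the core bound by Sox factors, were in 16.1% of the 56 member windows and 24.1% of those of all protein-coding genes, and among the 10 matched members at 1 RPKM or more they were in those of Kcnn4 and Kcnk1.

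Levels were concentrated in a few genes. On the per-length RPKM scale the 79 members summed to 98.5 ± 1.89 in wild type libraries (mean ± SD, n = 3), and Kcna6, Kcne4 and Kcnk5 made up 53.0% of that sum. The 8 most abundant members made up 79.8%. Of the 79, 14 averaged at least 1 RPKM in wild type libraries, 27 lay between 0.1 and 1, and 38 lay below 0.1. The last class includes 7 genes with 0 counts in every library: Kcna10, Kcnk9, Kcnk15, Kcnk18, Kcnmb2, Kcns2 and Kcnv2. By counting error alone, a gene at 0 could lie as high as 3 counts, or 0.0497 to 0.0875 CPM before that correction.

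**Figure D1:**
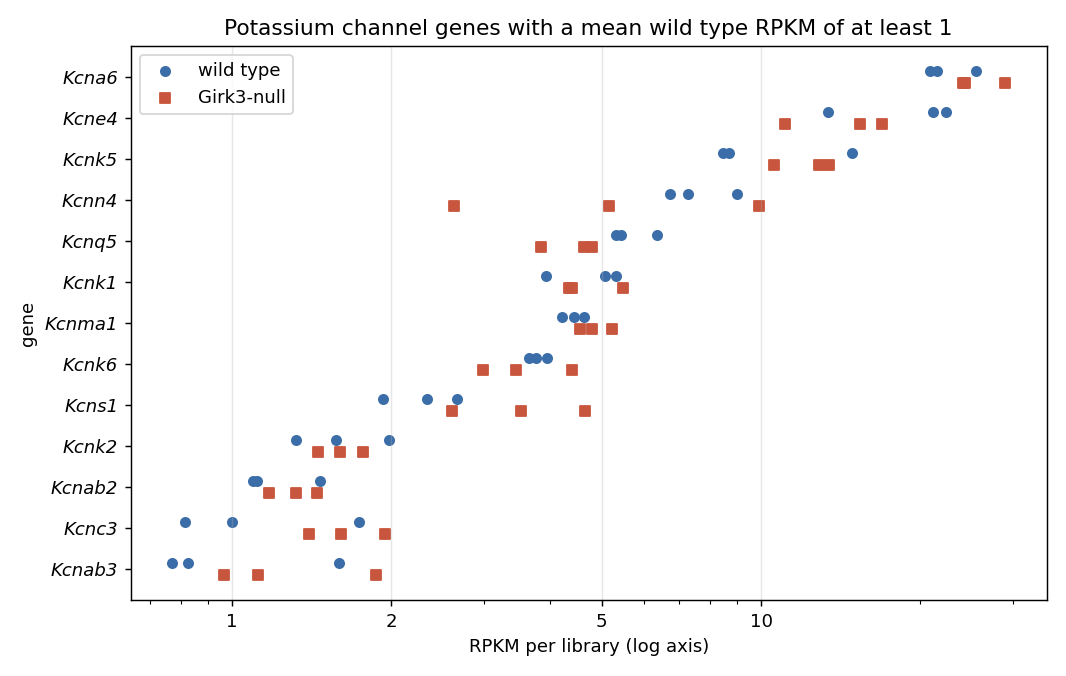
RPKM in each of the 6 libraries (log axis) for 13 potassium channel genes with a mean wild type RPKM of at least 1, ordered by that mean. Kcna6 lies at 20.8 to 28.9 RPKM in all 6 libraries, and Kcnn4 spreads most among the Girk3-null libraries, from 2.63 to 9.92.

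Among voltage-gated pores, Kcna6 (ENSMUSG00000038077; chromosome 6, 126708329 to 126740674, mm10), a Kv1 channel best known from neurons, stood highest. Taking replicates 1, 2 and 3 in that order, here and below, it measured 21.5, 20.8 and 25.5 RPKM in wild type and 24.1, 28.9 and 24.3 RPKM in Girk3-null libraries. The ranges overlapped. Its wild type mean was above that of 90.1% of protein-coding genes in the table. The other Kv1 genes were far lower: Kcna2 averaged 0.524, Kcna5 0.501 and Kcna1 0.457 RPKM in wild type libraries, and Kcna10 had no counts. Kcna5 and Kcna1 adjoin Kcna6 on chromosome 6, so the high level was not shared by its neighbours. An antisense gene, Gm26673, covers 39.6% of the exon bases of Kcna6 in GENCODE M21, but had 52 counts in all against 39621 for Kcna6. The strand setting of the counting is not given in the sources used here.

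Kcnq5 (ENSMUSG00000028033; chromosome 1, 21398403 to 21961942), a pore of the Kv7 family that carries a slowly activating current, was the next voltage-gated pore. It measured 5.31, 5.44 and 6.36 RPKM in wild type and 3.85, 4.79 and 4.63 RPKM in Girk3-null libraries, with no overlap between the groups. Kcns1, a silent subunit that forms no channel alone and modifies Kv2 pores, averaged 2.31 ± 0.369 RPKM in wild type libraries. In the EAG, ERG and ELK group no member reached 1 RPKM, and Kcnh2, the ERG channel of the heart, was highest at 0.369 ± 0.0406 RPKM.

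The leak channels were led by Kcnk5 (ENSMUSG00000023243; chromosome 14, 20140058 to 20181782), a two-pore domain channel opened by alkaline pH and known for volume regulation. It measured 8.72, 8.48 and 14.9 RPKM in wild type and 13.4, 10.6 and 12.9 in Girk3-null libraries. Wild type replicate 3 was high, and the groups overlapped. Kcnk1 and Kcnk6, relatives of one another that pass weak inward rectifying leaks, averaged 4.77 ± 0.751 and 3.78 ± 0.152 RPKM in wild type libraries. Kcnk2, a channel opened by membrane stretch, averaged 1.62 ± 0.332 RPKM. Of 14 two-pore genes, 4 reached 1 RPKM and 3 had no counts anywhere.

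Calcium-activated channels were represented by Kcnn4, the intermediate-conductance channel, and Kcnma1, the pore of the large-conductance BK channel. Kcnma1 varied little between wild type replicates, at 4.43, 4.63 and 4.21 RPKM in wild type libraries. Kcnn4 (ENSMUSG00000054342; chromosome 7, 24370263 to 24385209) measured 6.72, 7.29 and 9.02 RPKM in wild type libraries. In Girk3-null libraries it measured 2.63, 5.16 and 9.92 RPKM, a range that takes in all of the wild type values. The highest Girk3-null library was 3.96 times the lowest in CPM, the widest spread within that genotype among the 12 most abundant members. In the same libraries the chondrocyte markers summed to 69096, 99882 and 115110 CPM, most of it Col2a1, and the 9 others to 17800, 26959 and 27036 CPM. The 8 smooth muscle and pericyte markers summed to 672, 1177 and 1392 CPM, but Cspg4 alone gave 621, 1066 and 1291 CPM of this. The other 7 summed to 51.6, 110.6 and 100.7 CPM. Some other lists rose in the order of Kcnn4, such as the 10 endothelial markers at 32.3, 101 and 118 CPM. Others did not, such as the 7 neutrophil markers at 287.5, 589 and 91.7 CPM. An order of 3 libraries cannot tell these lists apart. The part of these markers in the Kcnn4 spread was not tested. The BK auxiliary subunit Kcnmb4 averaged 0.648 RPKM in wild type libraries, while Kcnmb1, the smooth muscle form, had 13 counts in all 6 libraries together.

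The auxiliary subunits were led by Kcne4 (ENSMUSG00000047330; chromosome 1, 78816758 to 78820028), a single-span protein that inhibits certain Kv channels. It measured 22.4, 21.1 and 13.4 RPKM in wild type and 17.0, 15.4 and 11.1 in Girk3-null libraries, so the groups overlapped. Kcnq1, a partner that Kcne proteins are best known to modify, had 51 counts over all 6 libraries. The antisense RNA Kcnq1ot1, with 13087 counts, overlaps 2.96% of its exon bases, and only reads in that stretch cannot be told apart without strand. Kcnab2, a cytosolic beta subunit of Kv1 channels, averaged 1.23 ± 0.209 RPKM in wild type libraries.

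The order of the 10 highest wild type means was Kcna6, Kcne4, Kcnk5, Kcnn4, Kcnq5, Kcnk1, Kcnma1, Kcnk6, Kcns1 and Kcnk2. Neighbours overlapped in their wild type ranges except at 3 steps: Kcnn4 stood wholly above Kcnq5, Kcnma1 above Kcnk6, and Kcnk6 above Kcns1. Per-length values rest on the gene lengths listed in the table.

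Summed by role, the Kv1 genes took 25.04% of the members' wild type RPKM, auxiliary and regulatory subunits 23.7%, two-pore domain channels 21.7% and calcium- or sodium-activated channels 13.2%. Kv7 genes took 6.98%, silent Kv modifiers 4.56%, Kv2 to Kv4 genes 3.98% and the EAG, ERG and ELK group 0.874%. The sum over all members was nearly level across libraries, at 98.3, 96.7 and 100.4 RPKM in wild type and 96.3, 98.5 and 94.8 in Girk3-null libraries. Divided by TMM factors it was 95.03 ± 7.44 against 100.2 ± 1.81 RPKM (SD, n = 3 each), so the order of the genotypes turned with the scaling. Within the sum, Kv7 genes measured 6.37 to 7.29 RPKM in wild type and 4.57 to 5.50 in Girk3-null libraries, and silent modifiers 3.85 to 4.96 and 5.07 to 6.51. These ranges stayed apart after TMM scaling, at 5.97 to 7.51 against 4.66 to 5.74 and 3.97 to 4.65 against 5.42 to 6.63. The EAG, ERG and ELK genes were also apart on both scales, at 0.768 to 0.953 against 0.553 to 0.733 RPKM as deposited and 0.791 to 0.893 against 0.563 to 0.783 after scaling. Single genes made up much of 2 of these differences. The silent modifiers' mean sum was 4.49 RPKM in wild type and 5.79 in Girk3-null libraries, of which Kcns1 alone gave 2.31 and 3.59. Of the Kv7 mean sums of 6.87 and 5.15 RPKM, Kcnq5 alone gave 5.70 and 4.42. The sums carry no test, and no background was computed for sums over other groups of genes.

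**Figure D2:**
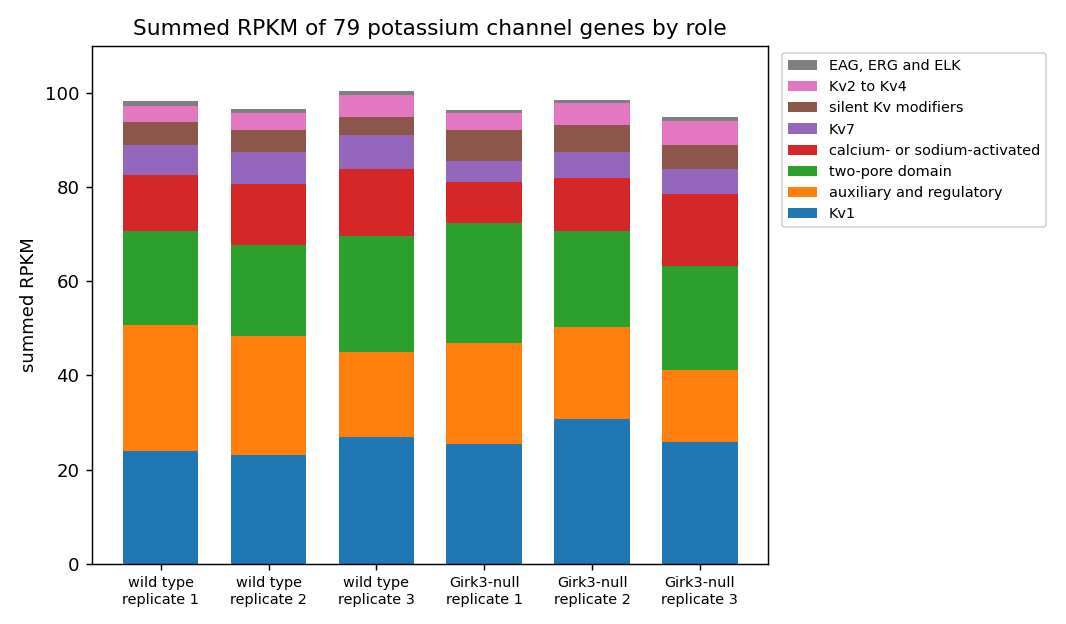
Summed RPKM of the 79 potassium channel genes in each library, stacked by role from Kv1 at the base to the EAG, ERG and ELK group at the top. The totals lie between 94.8 and 100.4 RPKM in all 6 libraries, and Kv1, auxiliary and two-pore genes fill most of each bar.

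In the genotype comparison no member passed. Of the 79 members, 45 had enough counts to be tested with edgeR's quasi-likelihood test, 27 others had at least 1 count but at most 51 in all, and 7 had none. Among the 45, 0 had an adjusted p under 0.05, where 1 of 17554 genes did (0.00570%). DESeq2 and limma-voom also called 0 members, while DESeq2 called 1.93% of all genes. At an unadjusted p under 0.05 there were 6 members of 45, or 13.3%, against 14.5% of all genes tested, so the share lay near the background. Of the 6, 4 were higher in Girk3-null libraries (background 7.49% of genes) and 2 lower (7.02%). The 6 became 1 without wild type replicate 1 or without wild type replicate 2, 13 without wild type replicate 3 and 3 without Girk3-null replicate 1. The median log2 fold change, Girk3-null over wild type, was 0.04 over the 45 members and 0.01 over all genes, and 25 were positive and 20 negative. The sign of the members' median turned with the scaling, at -0.06 by library size alone. The median size of the change, regardless of sign, was 0.29 for the members and 0.22 for all genes. For 20 of the 45 the 95% interval of the log2 fold change lay within -1 to 1, as it did for 10 of the 12 most abundant members. For the others a 2-fold difference in at least 1 direction lay within the interval.

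**Figure D3:**
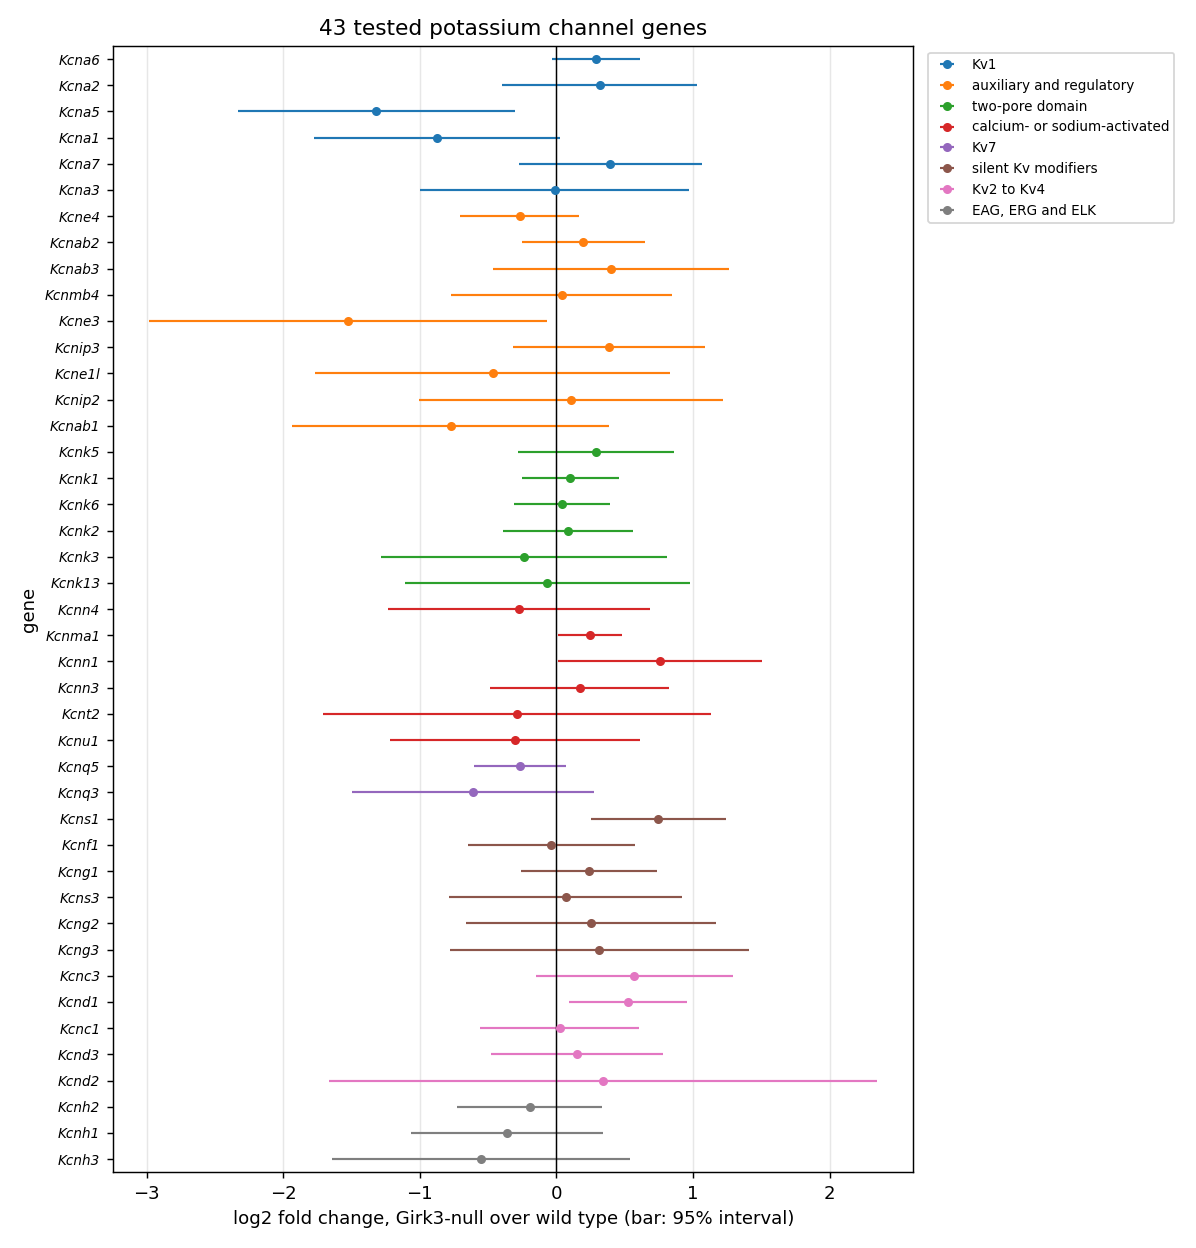
Log2 fold change of 43 of the 45 tested members, Girk3-null over wild type, with its 95% interval from edgeR's quasi-likelihood fit, coloured by role and ordered by wild type RPKM within a role. Points lie on both sides of 0, all 3 EAG, ERG and ELK members lie below it, and 6 intervals leave 0 out.

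Kcns1 (ENSMUSG00000040164; chromosome 2, 164163619 to 164171113), the silent modifier of Kv2 channels, had the smallest p-value of the members. It measured 6.77, 5.88 and 5.39 CPM in wild type and 12.8, 9.83 and 7.54 CPM in Girk3-null libraries. Every Girk3-null library was above every wild type library on this scale, with Girk3-null replicate 1 the highest. On deposited RPKM the groups overlapped, since Girk3-null replicate 3 had 2.60 and wild type replicate 1 had 2.66. The log2 fold change was 0.75 with a standard error of 0.22 and an interval of 0.25 to 1.24, and the adjusted p was 0.291 in edgeR (0.0628 to 0.814 over 14 alternatives). Without Girk3-null replicate 1 it was 0.53 with an adjusted p of 0.512.

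Kcnd1 (chromosome X, 7822289 to 7838280), a Kv4 pore of fast inactivating currents, measured 3.91, 3.73 and 4.68 CPM in wild type and 6.05, 5.09 and 6.61 in Girk3-null libraries. The groups did not overlap in CPM or in RPKM, and the log2 fold change was 0.53 (interval 0.09 to 0.96, adjusted p = 0.299 in edgeR). The gene is X-linked, and the library with Y-linked transcripts, Girk3-null replicate 1, lay between the other Girk3-null libraries. Without that library the log2 fold change was 0.51.

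Kcnma1 (chromosome 14, 23289431 to 24004859), the BK pore, measured 27.0, 27.9 and 28.3 CPM in wild type and 31.9, 35.1 and 31.6 in Girk3-null libraries. The difference was small but replicates were tight, and the log2 fold change was 0.24 with an interval of 0.01 to 0.48 (adjusted p = 0.332 in edgeR). On deposited RPKM the groups overlapped. Kcnn1 (chromosome 8, 70842049 to 70857008), a small-conductance calcium-activated channel, measured 1.27, 1.21 and 1.95 CPM in wild type and 3.24, 2.54 and 1.65 in Girk3-null libraries. Girk3-null replicate 3 lay below wild type replicate 3, and the log2 fold change of 0.76 (interval 0.01 to 1.504, adjusted p = 0.341 in edgeR) was 0.52 without Girk3-null replicate 1. The 4 other tested members of that role did not reach an unadjusted p under 0.05.

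The 2 members with lower values at that threshold were Kcna5 and Kcne3, both of low abundance. Kcna5 (chromosome 6, 126532553 to 126698192), a Kv1 channel of heart and smooth muscle, had 72, 98 and 29 counts in wild type and 24, 34 and 14 in Girk3-null libraries. That is 1.52, 1.80 and 0.707 CPM against 0.405, 0.779 and 0.436 CPM, with wild type replicate 3 below Girk3-null replicate 2. Its log2 fold change was -1.32 (interval -2.33 to -0.31, adjusted p = 0.291 in edgeR), and -1.13 without Girk3-null replicate 1. Kcna1, its neighbour on chromosome 6 and named after its values were seen, measured 4.21, 5.42 and 2.0 CPM in wild type and 2.41, 2.59 and 1.31 CPM in Girk3-null libraries. Wild type replicates 1 and 2 were highest for both genes. The span listed for Kcna5 encloses that of Kcna1, but in GENCODE M21 the genes do not overlap. There Kcna5 lies at 126532551 to 126535412 and Kcna1 at 126640397 to 126646384.

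Kcne3 (chromosome 7, 100176670 to 100184869), an auxiliary subunit that can hold Kv7 channels open, had 66, 57 and 25 counts in wild type and 7, 32 and 7 in Girk3-null libraries. In CPM this was 1.40, 1.05 and 0.610 against 0.118, 0.733 and 0.218. Girk3-null replicate 2 exceeded wild type replicate 3, so the groups overlapped, and the log2 fold change was -1.52 (interval -2.98 to -0.07, adjusted p = 0.332 in edgeR). It was -1.06 without Girk3-null replicate 1 and -2.65 without Girk3-null replicate 2.

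Markers of other cells also differed between these libraries. The 10 endothelial markers summed to 185, 239 and 145 CPM in wild type and 32.3, 101 and 118 CPM in Girk3-null libraries, and 9 of the 10 were lower in every Girk3-null library. The 9 erythroid markers summed to 213, 278 and 78.7 CPM and to 56.2, 160 and 90.2 CPM. The 10 skeletal muscle markers summed to 76.8, 70.0 and 31.5 CPM and to 41.3, 14.8 and 22.8 CPM, with 7 of 10 lower in every Girk3-null library. Of the smooth muscle and pericyte markers, the 7 other than Cspg4 summed to 169.6, 166.7 and 92.8 CPM and to 51.6, 110.6 and 100.7 CPM. No marker of these 4 lists was at 0 in all libraries. Among the remaining lists, the 7 neutrophil markers summed to 632.9, 402.2 and 203.8 CPM and to 287.5, 589 and 91.7 CPM. The 7 neuron markers summed to 2.62, 2.997 and 1.73 CPM and to 0.944, 1.49 and 1.65 CPM. The 7 Schwann markers other than Pmp22 summed to 420.6, 278.9 and 156.1 CPM and to 135.7, 201.7 and 187.9 CPM. The macrophage, osteoclast and osteoblast sums were not lower. Their highest Girk3-null values were 298, 343 and 3312 CPM, against 268, 324 and 2560 CPM in wild type. The part of any list in the lower values of Kcna5, Kcna1 and Kcne3 was not tested.

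**Figure D4:**
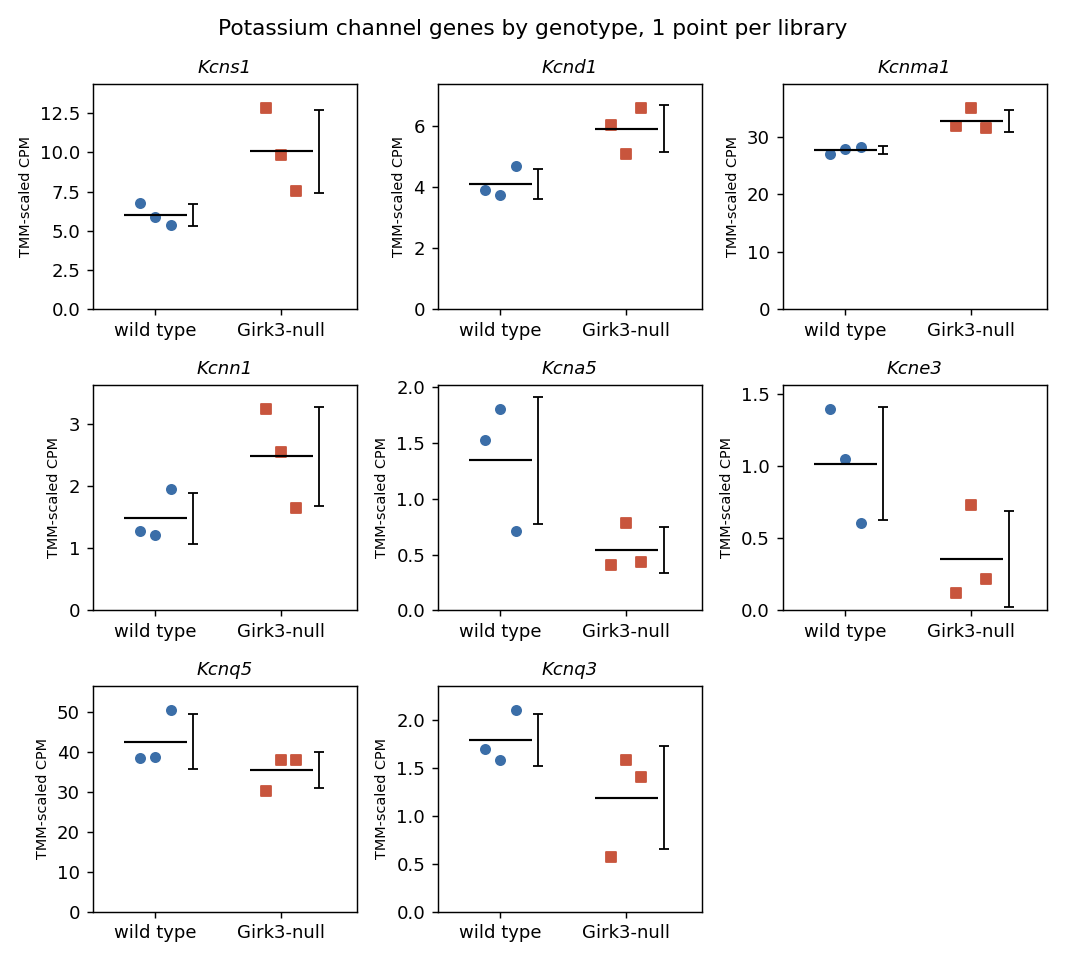
TMM-scaled CPM by genotype for the 6 members with an unadjusted p under 0.05 and for Kcnq5 and Kcnq3, 1 point per library, with the mean as a line and the SD as a bar (n = 3 each). Kcns1, Kcnd1 and Kcnma1 lie higher in all Girk3-null libraries, Kcnq5 and Kcnq3 lie lower in all of them, and Kcnn1, Kcna5 and Kcne3 overlap.

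In the Kv7 family, Kcnq5 and Kcnq3 were lower in every Girk3-null library. Kcnq5 measured 38.3, 38.7 and 50.4 CPM in wild type and 30.1, 37.9 and 38.0 in Girk3-null libraries. The gap to the nearest wild type library was small for Girk3-null replicates 2 and 3. Kcnq3, a pore of the neuronal M current, measured 1.69, 1.58 and 2.10 CPM in wild type and 0.573, 1.58 and 1.40 in Girk3-null libraries. Groups were apart in CPM and in RPKM for both, although for Kcnq3 wild type replicate 2 and Girk3-null replicate 2 were nearly equal in CPM. Log2 fold changes were -0.27 and -0.61 for Kcnq5 and Kcnq3, with adjusted p-values of 0.413 and 0.467 in edgeR, and both intervals included 0. Kcnq3 was named after its values were seen. Kcnq1 of the same family, with 51 counts in all, was not tested. Without Girk3-null replicate 1 the log2 fold changes of Kcnq5 and Kcnq3 were -0.16 and -0.26, and that of Kcnq5 was -0.12 without wild type replicate 3.

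Over all tested members, 7 of 45 (15.6%) had groups that did not overlap in CPM, against 20.0% of all genes tested. Of the 7, 3 were higher in every Girk3-null library (background 9.86%) and 4 were lower (background 10.2%). Those lower included Kcnq5, Kcnq3 and Kcnh2, the last at 1.76, 1.78 and 1.61 CPM in wild type and 1.45, 1.58 and 1.46 CPM in Girk3-null libraries. On deposited RPKM 5 of the 45 (11.1%) had groups that did not overlap, against 21.3% of all genes tested. Kcna6 itself measured 119.9, 114.6 and 156.05 CPM in wild type and 145.9, 176.6 and 154.6 CPM in Girk3-null libraries, so the groups overlapped. Its log2 fold change was 0.29 with an interval of -0.03 to 0.61 (adjusted p = 0.371 in edgeR), and it was 0.44 without wild type replicate 3. For Kcne4 and Kcnk5 the intervals were -0.70 to 0.16 and -0.28 to 0.86. The log2 fold change of Kcnk5 was 0.29, but 0.67 without wild type replicate 3 (adjusted p = 0.0686 in edgeR), 0.12 without wild type replicate 2 and 0.14 without wild type replicate 1. That of Kcne4 was -0.27, but -0.43 without wild type replicate 3, -0.15 without wild type replicate 1 and -0.13 without Girk3-null replicate 3. The 95% intervals of Kcnk1, Kcnk6 and Kcnk2 were -0.25 to 0.46, -0.31 to 0.39 and -0.39 to 0.56, which leaves out a 2-fold difference in either direction. For Kcnn4 the interval was wide, at -1.24 to 0.68, and the log2 fold change of -0.28 turned to 0.09 without Girk3-null replicate 1 and was -0.90 without Girk3-null replicate 3, -0.18 without Girk3-null replicate 2 and -0.08 without wild type replicate 3. For Kcnab2 the interval was -0.25 to 0.65, and the log2 fold change of 0.20 was 0.41 without wild type replicate 3, 0.09 without wild type replicate 2 and 0.11 without wild type replicate 1.

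Potassium handling outside the channel genes was read from a list of 36 genes of pumps, cotransporters and channel partners, of which 29 were tested. By edgeR 0 of the 29 passed, where 0.00570% of all genes did. An unadjusted p under 0.05 was reached by 7 of the 29, against 14.5% of all genes tested. All 7 were higher in Girk3-null libraries (background 7.49% of genes). DESeq2 called 3 of the 29, against 1.93% of all genes tested. The sodium pump that loads cells with potassium was represented by its beta subunit Atp1b3, at 77.0 ± 2.83 RPKM in wild type libraries and a log2 fold change of 0.14. The 3 genes DESeq2 called were Atp1b2, a pump beta subunit, and Fxyd1 and Fxyd3, small regulators of the pump. In edgeR their log2 fold changes were 0.95 (interval 0.47 to 1.42), 0.79 (0.38 to 1.19) and 1.29 (0.57 to 2.01), each with an adjusted p of 0.291. Without Girk3-null replicate 1, the library with Y-linked transcripts, they were 0.91, 0.58 and 0.98, each with an adjusted p of 0.512 in edgeR. The others of the 7 included Slc12a4, a potassium chloride cotransporter (0.41), Fxyd7 (1.013), a further member of the Fxyd family, and Hcn2, a hyperpolarisation-activated cation channel (1.02). Without Girk3-null replicate 1 these were 0.33, 0.79 and 0.82. The unadjusted p in edgeR was then 0.0495, 0.0578 and 0.0782. Hcn2 was of low abundance, with 143 counts in all and a mean of 0.110 RPKM in wild type libraries, and Fxyd7 had 421 counts. In the same libraries the chondrocyte markers summed to 44474 to 77465 CPM in wild type and 69096 to 115110 CPM in Girk3-null libraries. Most of it was Col2a1, and the 9 others summed to 15596 to 22499 and 17800 to 27036 CPM, which overlap. The part of these markers in the partners' differences was not tested.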

How the data were processed

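Per the file headers, the authors deposited unnormalized counts for each gene and library. Beside them stands RPKM, which the authors scaled to library total and gene length per the labels' protocols. The submitters' processing notes name bcl2fastq 2.19.0, STAR 2.5.2b and mm10. How reads were assigned to genes (tool, annotation, strand) is not given in the sources used here. Libraries were grouped by genotype label and numbered in deposit order, which pairs no samples. Within each genotype, libraries differed by more than counting noise (chi-square per degree of freedom 26.3 to 138). It was 26.3 for wild type replicates 1 and 2 and 29.8 for Girk3-null replicates 2 and 3. Pairs with wild type replicate 3 or Girk3-null replicate 1 gave 83.6 to 138. The closest wild type pair lay below title number 200 and the closest Girk3-null pair above it. Wild type replicate 3 lay above 200 and Girk3-null replicate 1 below it, so title number and genotype partly coincided.

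All genes kept by filterByExpr (minimum count 10, minimum total 15), 17554 in number, were fitted with edgeR 4.0.16 in R 4.3.3 (quasi-likelihood F-test, genotype alone, TMM factors). P-values were adjusted by Benjamini-Hochberg over all of them at a threshold of 0.05, and the fit was tested on simulated data. DESeq2 1.42.0 and limma 3.58.1, other scalings, no filter, log2(RPKM + 0.1), log2(RPKM + 1), a covariate for title numbers above 200 and leaving out each library were alternatives. Standard errors are the absolute log2 fold change over the square root of F. Levels between genes are compared in RPKM.

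The members and lists were chosen with earlier results of these data known. Named were the 12 members highest in wild type RPKM, those with an unadjusted p under 0.05, the highest of each role and any called under an alternative (none was), of which 16 are reported. Partners named, chosen after their values were seen, came from those with an unadjusted p under 0.05 and the most abundant, 7 in all; so were Kcna1, Kcnq3 and the other low members named with a level or count. Some genes that these rules pick are not reported here singly or drawn, and stay in every fit, count and sum. The series' design text calls the libraries biological replicates. Upstream sequences are RefSeq's (GRCm38.p6), matched by symbol. Gene positions are those of the table, and all 79 members overlapped the gene of the same identifier in GENCODE M21.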

Additional observations from a re-analysis of the deposited data

How the results depend on the processing

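No member passed under any of the 14 alternatives. The 1 gene called over all genes became 339 in DESeq2 and 53 with no filter, and 0 with library size only, limma-voom, both RPKM scales and the title number covariate, and 0 to 74 when 1 library was left out, the highest without wild type replicate 3. Members with an unadjusted p under 0.05 numbered 6, and then 1 without wild type replicate 1 or 2, 13 without wild type replicate 3 and 3 without Girk3-null replicate 1. Library size alone moved the median log2 fold change of all genes from 0.01 to -0.09 and that of the members from 0.04 to -0.06. The members' median was also below 0 with no filter (-0.26, with 27 more members), on log2(RPKM + 0.1) (-0.04), on log2(RPKM + 1) (-0.02), without wild type replicate 1 (-0.007) and without Girk3-null replicate 3 (-0.08). Of 350 values of the 25 named genes under the alternatives, 335 kept their direction and side of the threshold, 3 passed (Atp1b2, Fxyd1 and Fxyd3 in DESeq2), and 12 in 4 genes turned direction, namely Kcnk1, Kcnk6, Kcnk2 and Kcnn4. Library size only gave -0.0103 for Kcnk1, -0.0633 for Kcnk6 and -0.0121 for Kcnk2. On log2(RPKM + 0.1) Kcnk1 was -0.0073 and Kcnk6 -0.0805, and on log2(RPKM + 1) Kcnk1 was -0.0068, Kcnk6 -0.0624 and Kcnk2 -0.0024. Leaving out 1 library gave -0.0013 to 0.1683 for Kcnk1, -0.1087 to 0.1414 for Kcnk6, -0.0641 to 0.3122 for Kcnk2 and -0.9045 to 0.0923 for Kcnn4. The cause was not tested. With the title number covariate all 25 named genes kept their direction, but sizes moved. Kcne4 went from -0.27 to -0.11 and Kcna1 from -0.88 to -0.53, while Kcnn4 went from -0.28 to -0.75 and Kcnq3 from -0.61 to -0.98. The members' summed wild type RPKM of 98.5 was 95.03 after TMM scaling. No paired analysis was possible because the labels give the groups no shared replicate numbers. The count filter left 34 members untested. With no filter 72 were tested and 8 had an unadjusted p under 0.05, of which 3 were higher and 5 lower in Girk3-null libraries. The simulated data held known changes in genes drawn at random from the better-counted ones, and the share recovered is not given here. What differences could be detected among the members themselves was not tested.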
